A study of Homo sapiens with 24 samples.

Results

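The genes described here are 10 keratins, KRT4, KRT5, KRT6A, KRT8, KRT13, KRT14, KRT15, KRT17, KRT18 and KRT19, followed across 4 human cancer cell lines. They were chosen by symbol as keratins of basal, suprabasal and simple epithelium, and all 10 are rows of the count tables, which hold 61533 genes. Cal27 (tongue squamous cell carcinoma), Fadu (hypopharyngeal squamous cell carcinoma), A375 (melanoma) and Hth83 (by its name an anaplastic thyroid carcinoma line) are all wild type and are all labelled as head and neck cancer cells. Each line was sequenced untreated (exposure of 0 s) and 24 h after 60 s of Piezo-CAP, in which a piezoelectric source ionises gas to a plasma that stays cool enough for cells, with 3 libraries in each of the 8 groups. Fadu was grown in MEM and the other lines in DMEM, so line and medium cannot be told apart in comparisons with Fadu. The series title places the work in sensitisation of tumour cells to chemotherapy and immune checkpoint blockade, and the comparisons here ask how far keratin mRNA differs between the lines and after plasma.

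Keratins are the intermediate filament proteins of epithelial cells. A filament is built from pairs of a type II keratin (here KRT4, KRT5, KRT6A and KRT8) and a type I keratin (KRT13, KRT14, KRT15, KRT17, KRT18 and KRT19). KRT5 with KRT14 or KRT15 marks the basal layer of stratified epithelium, KRT4 with KRT13 the suprabasal layers of the oral and oesophageal lining, KRT6A and KRT17 are induced in wounded or activated keratinocytes, and KRT8 with KRT18 is the pair of simple, single-layered epithelium. KRT19 is a type I keratin of simple epithelium that is also found in basal cells of some stratified linings.

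Markers matched the labelled cell type in part. Of 6 epithelial markers (EPCAM, CDH1, ESRP1, ESRP2, CLDN7 and GRHL2), all were above 1 CPM (reads of a gene scaled to a common library size over the 24 libraries) in untreated Cal27 and Fadu. All 6 were under 1 CPM in A375, and 5 of the 6 were under 1 CPM in Hth83, where only EPCAM stood at 68.1 CPM and GRHL2 had no read. A375 carried SOX10, a melanocyte lineage factor, at 1059 CPM, whereas TP63, which directs squamous epithelial identity, reached 416 CPM in Hth83, 363 CPM in Cal27, 423 CPM in Fadu and 0.0125 CPM in A375. Of 6 thyroid markers, Hth83 had the transcription factor PAX8 at 137 CPM and the other 5 under 1 CPM, among them thyroglobulin (TG, 0.0437 CPM). Its thyroid marker sum, 136 to 139 CPM untreated, was above those of Cal27 (36.0 to 42.2 CPM), Fadu (18.2 to 20.7 CPM) and A375 (1.35 to 2.19 CPM). That sum is nearly all PAX8. Only 3 of the 6 thyroid markers were under 1 CPM in Cal27 and 3 in Fadu, against 5 in A375, so more of the list was present in the squamous lines than in Hth83. The 6 leukocyte markers summed to at most 7.53 CPM in any library. Total counts per library ran from 27.9 M to 49.5 M reads, and libraries of the same group differed by 2.88 to 7.91 times the chi-square of counting error per degree of freedom. Whether libraries of 1 group were grown as separate cultures is not labelled, and p-values then reflect only their spread, which may be technical.

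Several keratin mRNAs are nearly identical to other genes, which limits how far their counts can be told apart. The coding sequence of KRT6A is 97.5% identical to that of KRT6B and 97.9% to that of KRT6C, and the first 60 coding bases are the same in the 3 genes. The coding sequence of KRT14 is 88.7% identical to that of KRT16 and 85.2% to that of KRT17. The 60 bases from the start codon (5′ to 3′, GENCODE 29 transcripts on GRCh38) are shown for these genes because counts of the activated keratins turn on them. Capitals mark the 6 positions at which KRT17 departs from KRT14, in both of them.
KRT6A: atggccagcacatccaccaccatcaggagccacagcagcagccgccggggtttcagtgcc
KRT14: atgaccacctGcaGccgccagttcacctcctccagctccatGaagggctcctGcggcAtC
KRT16: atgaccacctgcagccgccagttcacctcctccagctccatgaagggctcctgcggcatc
KRT17: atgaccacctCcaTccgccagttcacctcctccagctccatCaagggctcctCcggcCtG
KRT16 is identical to KRT14 over this stretch. Of all runs of 50 bases in the transcript, 39.1% of those of KRT6A also occur in another gene (35.2% in KRT6C), 39.7% of KRT8 (23.2% in the pseudogene KRT8P3), 35.1% of KRT18, 23.8% of KRT14 (11.2% in KRT16) and 17.4% of KRT17. The share was 3.99% for KRT5, 1.79% or less for KRT13, KRT15 and KRT19, and 0% for KRT4. Counts of KRT6A, KRT8, KRT14, KRT17 and KRT18 are therefore uncertain, since no source used here gives the treatment of reads with several matches. KRT8 and KRT18 also share 525 exonic bases on opposite strands, and whether counting used strand is not given either.

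On GRCh38 the genes lie in 2 clusters. The type II genes KRT6A (chr12:52487174-52493257), KRT5 (chr12:52514575-52520687), KRT4 (chr12:52806549-52814551) and KRT8 (chr12:52897187-52949954) are read from the minus strand, and the type I gene KRT18 (chr12:52948871-52952901) follows on the plus strand. The other type I genes, KRT13 (chr17:41500981-41505705), KRT15 (chr17:41513743-41522529), KRT19 (chr17:41523617-41528308), KRT14 (chr17:41582279-41586921) and KRT17 (chr17:41619441-41624842), are read from the minus strand of chromosome 17. A RefSeq promoter (build GRCh38.p14) was matched for 3 of the 10 genes, KRT4, KRT5 and KRT8. The 250 bases before the RefSeq start are given for KRT5 (chr12:52520395-52520644, minus strand) and KRT4 (chr12:52814117-52814366, minus strand), the type II genes with the largest falls after plasma, with the motif match in capitals. Both windows lie inside the gene intervals given above, which are those of GENCODE 29 and begin further upstream.
KRT5: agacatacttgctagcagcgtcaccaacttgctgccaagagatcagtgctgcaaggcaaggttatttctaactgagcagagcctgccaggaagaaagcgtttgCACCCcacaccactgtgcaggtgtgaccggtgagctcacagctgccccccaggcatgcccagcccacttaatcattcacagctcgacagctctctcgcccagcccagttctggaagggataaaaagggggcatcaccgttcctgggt
KRT4: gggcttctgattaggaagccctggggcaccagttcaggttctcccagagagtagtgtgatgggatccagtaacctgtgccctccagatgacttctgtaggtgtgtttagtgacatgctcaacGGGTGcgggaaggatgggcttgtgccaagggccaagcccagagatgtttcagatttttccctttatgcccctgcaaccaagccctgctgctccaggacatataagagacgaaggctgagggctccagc
Both strands were searched for the TATA box (letters TATAAA), the AP-1 motif (letters TGANTCA), the SP1 box (letters GGGCGG), the KLF box (letters CACCC) and the TEAD motif (letters CATTCC). Each promoter held 1 match, to the KLF box, which lay 147 bases before the start in KRT5 and 128 bases before it in KRT4. The KLF box occurs in 54.7% of the 35116 promoters of the same length, the TATA box in 10.7%, the AP-1 motif in 6.57%, the SP1 box in 42.6% and the TEAD motif in 11.9%.

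Before treatment the 4 lines carried different keratin sets. Levels of different genes are compared here as CPM per kb of the principal transcript. The 10 keratins summed to 7268 ± 131 CPM per kb (SD, n = 3 libraries throughout) in Fadu, 2203 ± 87.3 in Hth83, 1213 ± 36.4 in Cal27 and 76.8 ± 2.74 in A375, and the ranges of the lines did not overlap. They made up 98.6% of all keratin mRNA (these and 45 other keratin genes) in Fadu, 91.2% in Cal27, 76.5% in A375 and 63.8% in Hth83.

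**Figure D1:**
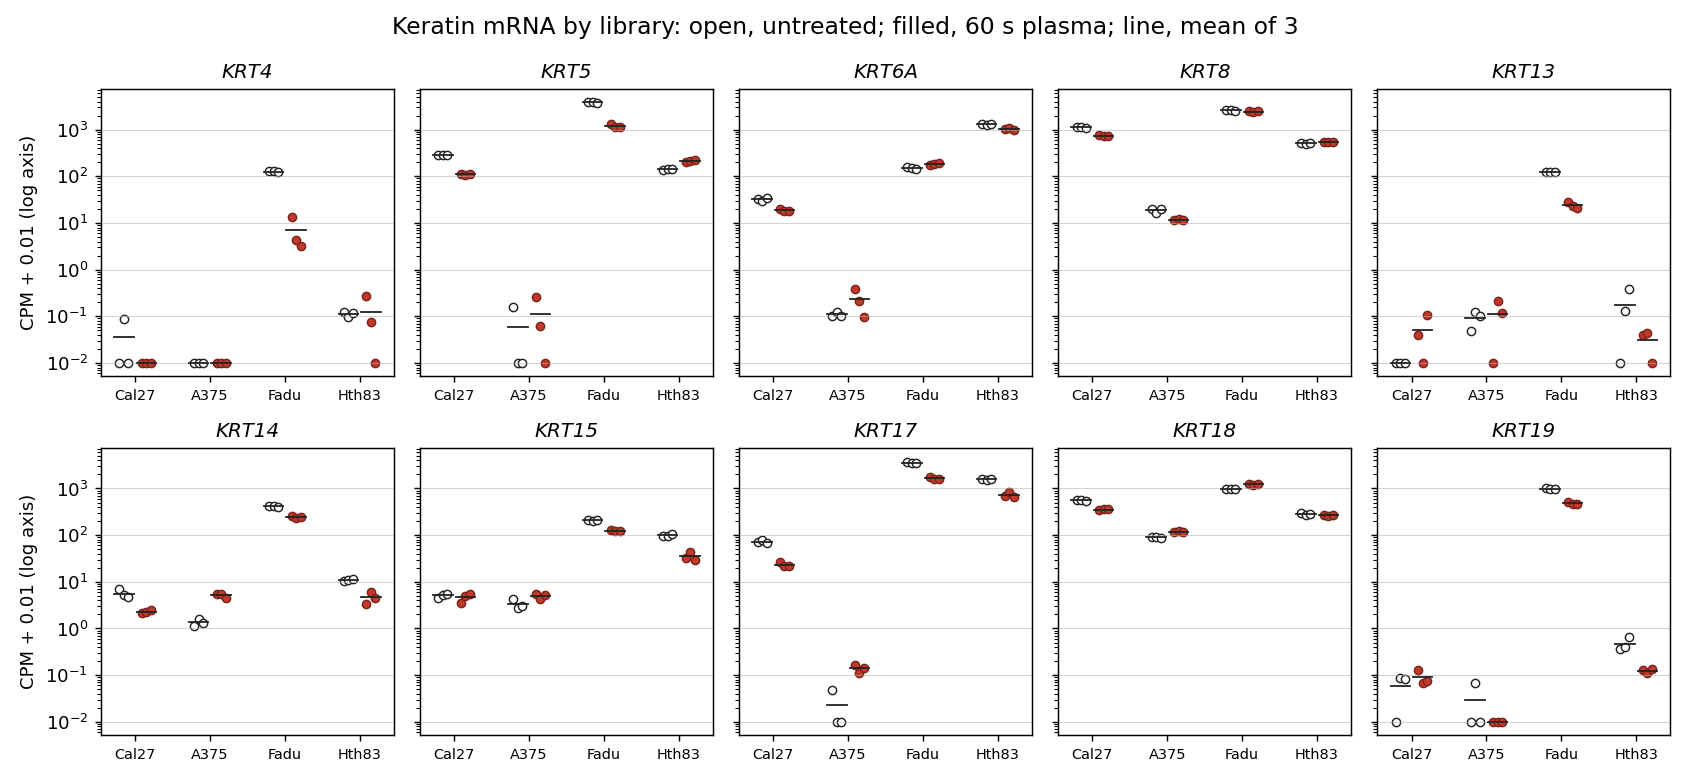
Keratin mRNA in each of the 24 libraries, as CPM plus 0.01 on a log axis, with 1 panel per gene and the 4 lines along the x axis. Open points are untreated and filled points treated libraries, and the short line is the mean of 3. KRT4, KRT13 and KRT19 exceed 1 CPM only in Fadu, and KRT5, KRT6A and KRT17 are near 0 in A375.

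Cal27 was led by the simple pair. KRT8 stood at 641 ± 15.9 and KRT18 at 392.4 ± 17.2 CPM per kb, together 85.2% of the sum over the 10 genes, ahead of KRT5 (112 ± 1.35), KRT17 (48.0 ± 4.53) and KRT6A (13.9 ± 1.05). KRT14 (3.32 ± 0.70) and KRT15 (2.13 ± 0.20) were low, and KRT4, KRT13 and KRT19 had at most 2 reads in an untreated library.

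Fadu expressed all 10. KRT17 was highest at 2339 ± 58.8 CPM per kb, followed by KRT5 (1514 ± 39.0) and KRT8 (1489.8 ± 31.3), which did not differ beyond their spread with this length. KRT19 (712 ± 12.1) and KRT18 (687 ± 4.32) came next, then KRT14 (252 ± 6.95), KRT15 (86.5 ± 2.54), KRT13 (73.8 ± 0.63), KRT6A (65.1 ± 2.68) and KRT4 (48.8 ± 1.58). The order below KRT17 depends on the transcript length used. With the length of all annotated exons, KRT5 stood at 893, KRT19 at 423 and KRT8 at 380 CPM per kb.

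In Hth83 the activation keratins led, with KRT17 at 1037 ± 43.5 and KRT6A at 569 ± 25.4 CPM per kb, together 72.9% of the sum of the 10. KRT8 (291 ± 10.7) and KRT18 (202.3 ± 11.5) followed, with KRT5 at 55.9 ± 1.22, KRT15 at 41.4 ± 3.02 and KRT14 at 6.58 ± 0.39. The hair keratin KRT81, not among the 10, was at 1087 ± 125 CPM per kb, 31.4% of all keratin mRNA in this line, and did not differ from KRT17 beyond its spread. That likeness depends on the length used. With the length of all annotated exons KRT81 stayed at 1087 and KRT17 was at 503 CPM per kb.

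A375 had little keratin besides KRT18, at 63.7 ± 2.28 CPM per kb. KRT10, a suprabasal keratin of epidermis that is not among the 10, followed at 13.4 ± 1.63. KRT8 was at 10.7 ± 1.10, KRT80 (also not among the 10) at 4.92 ± 0.39, KRT15 at 1.40 ± 0.33 and KRT14 at 0.81 ± 0.15. KRT4 had no read in any of the 6 libraries, and KRT5, KRT6A, KRT13, KRT17 and KRT19 stayed under 1 CPM. In every untreated line except A375 KRT8 was above KRT18, but this order depends on the transcript length used. With the length of all annotated exons (6881 bases for KRT8, whose annotation extends far upstream) the ratio of KRT8 to KRT18 was 0.944 in Cal27, 0.83 in Hth83 and 1.25 in Fadu, against 1.63, 1.44 and 2.17 with the principal transcript.

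Tested on counts between untreated lines (edgeR, quasi-likelihood, p adjusted over all genes by Benjamini and Hochberg), 10 of 10 keratins differed between Cal27 and Fadu, A375 and Fadu, and Fadu and Hth83, where 72.7%, 78.5% and 72.8% of all genes tested did. Between Cal27 and A375 8 differed (background 79.7%, not KRT4 and KRT19), between Cal27 and Hth83 9 (72.2%, not KRT4) and between A375 and Hth83 9 (74.9%, not KRT13). With shares this high over all genes, the counts say little about the keratins in particular. The pairs that failed are ones in which the gene had only a few reads in either line. Some pairs that passed had as few, such as KRT13 in Cal27 (0 CPM) against A375 (0.0822 CPM). Another was KRT4 in A375 (0 CPM) against Hth83 (0.105 CPM). The log2 difference (± SE) of KRT5 was -3.75 ± 0.04 for Cal27 minus Fadu and 4.78 ± 0.05 for Fadu minus Hth83. KRT6A was highest in Hth83, with a log2 difference of -3.11 ± 0.04 for Fadu minus Hth83.

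After plasma, keratin mRNA summed to less in the 3 lines that carried squamous keratins and to more in A375. The sum of the 10 went from 1213 to 744 ± 8.91 CPM per kb in Cal27, from 7268 to 4472 ± 174 in Fadu and from 2203 to 1522 ± 71.6 in Hth83, and from 76.8 to 94.2 ± 2.61 in A375, with no overlap between untreated and treated libraries in any line. The sums themselves were not tested. In bulk RNA, fewer cells of a kind and less RNA per cell cannot be told apart.

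Each gene was tested within its line by edgeR's quasi-likelihood model with the same adjustment, and "rose" and "fell" are used at an adjusted p under 0.05. Of the 10 keratins, 7 passed the low-count filter in Cal27, 4 in A375, 10 in Fadu and 8 in Hth83. In Cal27 6 fell and KRT15 did not pass, where 45.1% of 17371 genes passed, 21.9% higher and 23.2% lower. In Fadu 8 fell and 2 rose, where 53.3% of 19152 genes passed, 26.3% higher and 27% lower. In Hth83 6 fell, 1 rose and 1 did not pass, where 50.1% of 17279 genes passed, 25.9% higher and 24.2% lower. In A375 3 rose and 1 fell, where 50.5% of 19604 genes passed, 25.7% higher and 24.8% lower. The untreated and treated libraries did not overlap for 6 of 7 keratins in Cal27, 10 of 10 in Fadu, 8 of 8 in Hth83 and 4 of 4 in A375, beside 52.8%, 58.6%, 57% and 57.7% of all genes tested. Rises made up 48.5% of all calls in Cal27, 49.3% in Fadu and 50.9% in A375, and 62.4%, 61.8% and 39.8% when libraries were scaled by total count alone. By limma on log2(TPM + 1) the share was 83.4% in Cal27 and 40.8% in A375. The median log2 fold change over the keratins tested was -0.79 in Cal27, -0.91 in Fadu, -0.72 in Hth83 and 0.48 in A375, beside medians of all genes between -0.02 and 0.01.

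**Figure D2:**
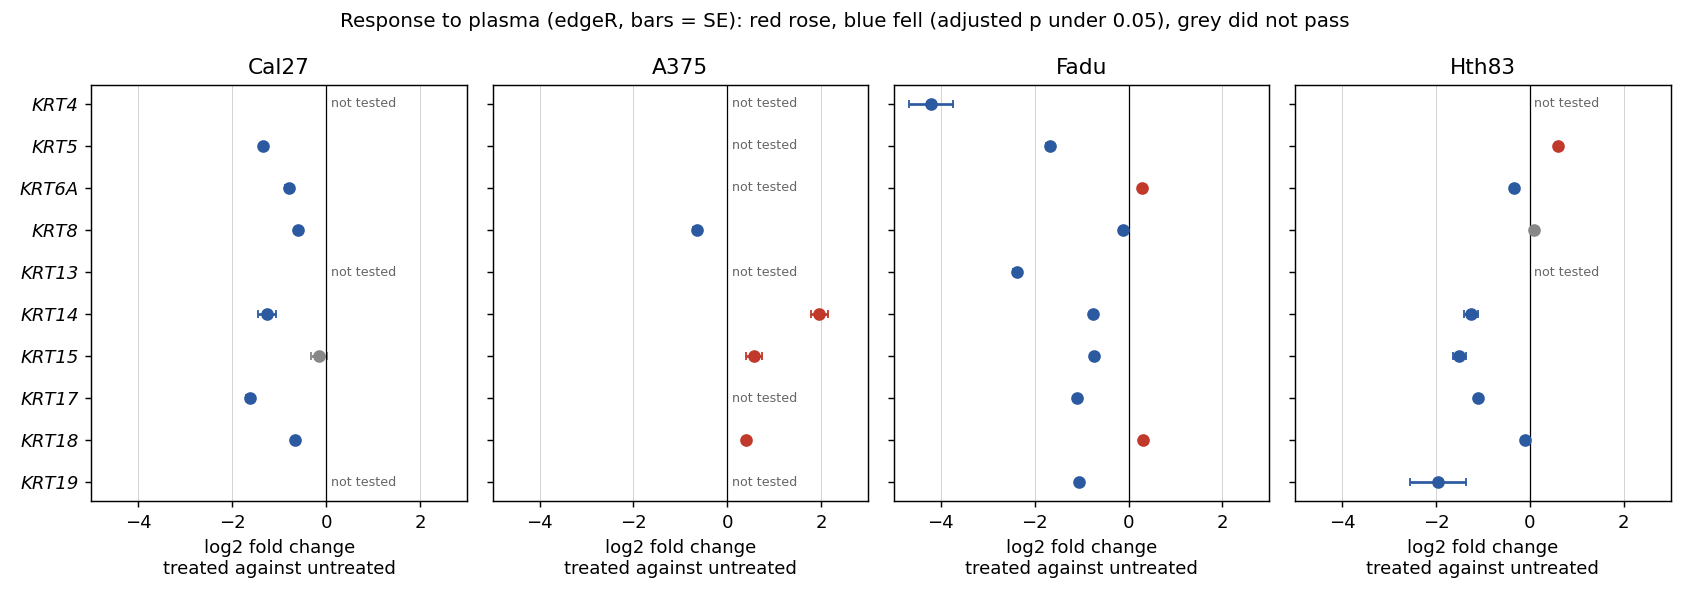
Log2 fold change of treated against untreated libraries for each keratin (rows) in each line (panels), with bars for the SE. Red points rose and blue points fell at an adjusted p under 0.05, grey points did not pass, and genes under the count filter are written as not tested. The falls reach -4.21 for KRT4 in Fadu, and the rises 1.96 for KRT14 in A375.

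KRT5, the type II keratin of basal cells, fell in Cal27 and Fadu and rose in Hth83. In Fadu the untreated libraries were at 3936, 3823 and 3739.7 CPM and the treated ones at 1343, 1168 and 1120.5 CPM, a log2 fold change of -1.67 ± 0.08 (adjusted p = 7.93e-05 by edgeR). Cal27 went from 286, 287 and 281 CPM to 114, 109 and 113 CPM, a change of -1.34 ± 0.04 (adjusted p = 5.71e-23 by edgeR). The treated libraries of both lines lay far below all untreated ones. In Hth83 the levels were 138, 144 and 142 CPM untreated and 201.2, 217 and 221 CPM treated, so that every treated library was higher (0.60 ± 0.05, adjusted p = 6.97e-12 by edgeR). The treatment effect on KRT5 differed between Cal27 and Hth83 (difference of log2 fold changes -1.94 ± 0.11) and between Fadu and Hth83 (-2.25 ± 0.10), in the joint fit of the 24 libraries.

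KRT14, the type I partner of KRT5, fell in the 3 lines with TP63 mRNA and rose in A375. It was at 429, 421 and 406 CPM in untreated Fadu and at 260.3, 237 and 246 CPM after plasma (-0.77 ± 0.03, adjusted p = 1.41e-36 by edgeR). Levels were far lower in Cal27, with 6.85, 5.10 and 4.62 CPM untreated and 2.13, 2.26 and 2.49 CPM treated (-1.26 ± 0.19). Hth83 had 10.3, 10.9 and 11.6 CPM untreated and 3.41, 5.91 and 4.49 CPM treated (-1.25 ± 0.15). No untreated library overlapped a treated one in any of these lines. The falls in Cal27 and Hth83 did not differ beyond error (difference -0.0062 ± 0.19), whereas that in Fadu was smaller than each (-0.51 ± 0.18 for Cal27 minus Fadu and 0.50 ± 0.14 for Fadu minus Hth83, adjusted p = 0.0254 and 0.00547 by edgeR).

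In A375 KRT14 rose from 1.11, 1.61 and 1.32 CPM to 5.42, 5.49 and 4.39 CPM, 3.90-fold on the scale of the fit (1.96 ± 0.19, adjusted p = 4.08e-10 by edgeR). The 6 epithelial markers summed to 1.18 to 1.57 CPM in untreated and 1.38 to 1.98 CPM in treated A375 libraries, and KRT5 had at most 0.252 CPM in any of them. The difference in effect on KRT14 (log2) was -3.21 ± 0.24 for Cal27 minus A375, 2.70 ± 0.18 for A375 minus Fadu and 3.20 ± 0.21 for A375 minus Hth83.

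KRT15, another type I keratin of basal cells, fell in Fadu and most steeply in Hth83. Untreated Hth83 libraries held 95.4, 94.5 and 107 CPM and treated ones 32.0, 43.0 and 29.7 CPM (-1.50 ± 0.14, adjusted p = 6.08e-05 by edgeR). In Fadu it went from 208, 201 and 213 CPM to 131, 121 and 124 CPM (-0.73 ± 0.04). Cal27, at 4.56, 5.25 and 5.50 CPM untreated and 3.54, 4.98 and 5.34 CPM treated, had overlapping groups and did not pass (-0.14 ± 0.17, adjusted p = 0.53 by edgeR). In A375 KRT15 was at 4.25, 2.76 and 3.01 CPM untreated and 5.48, 4.26 and 5.12 CPM treated, and rose by the main test (0.57 ± 0.16, adjusted p = 0.00448 by edgeR). That call was lost in the joint fit (adjusted p = 0.0537 by edgeR) and in limma on log2(TPM + 1) (adjusted p = 0.0855). The difference between lines was 2.02 ± 0.23 for A375 minus Hth83 and 0.79 ± 0.15 for Fadu minus Hth83 (joint fit).

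Only Fadu had enough reads of the suprabasal pair to test, and there both genes fell. KRT13, the type I member, was at 124, 125 and 126 CPM untreated and at 28.7, 22.9 and 21.1 CPM treated (-2.39 ± 0.08, adjusted p = 1.95e-12 by edgeR). KRT4, the type II member, went from 127, 129 and 121 CPM to 13.6, 4.40 and 3.21 CPM (-4.21 ± 0.47, adjusted p = 0.0017 by edgeR). The 3 treated libraries differed among themselves in KRT4, the first being the highest, and without that library (Fadu treated replicate 1) the log2 fold change was -5.05. The ratio of KRT4 to KRT13 per kb went from 0.661 ± 0.026 to 0.18 ± 0.12, without overlap, a log2 change of -1.88 that became -2.54 without Fadu treated replicate 1. In the other lines the 2 genes had at most 0.366 CPM in any library.

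KRT17, the type I keratin of activated keratinocytes, fell in each line that expressed it. Fadu went from 3624, 3449.7 and 3569 CPM to 1795, 1603 and 1611 CPM (-1.10 ± 0.04, adjusted p = 1.14e-12 by edgeR). Hth83 went from 1587, 1501 and 1631 CPM to 703, 832 and 662 CPM (-1.09 ± 0.08, adjusted p = 5.6e-07 by edgeR). These falls did not differ beyond error (difference 0.016 ± 0.11). In Cal27, where the gene was much lower, it went from 70.2, 80.5 and 67.5 CPM to 26.1, 22.0 and 22.2 CPM (-1.63 ± 0.07), a larger fall than in Fadu (difference -0.55 ± 0.12) and Hth83 (-0.53 ± 0.12). A375 had at most 0.157 CPM and was not tested.

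KRT6A, the type II keratin of the activated state, fell less than KRT17 in Cal27 and Hth83 and went the other way in Fadu. In Fadu it rose, from 156, 152 and 144 CPM to 179, 186 and 189.5 CPM (0.28 ± 0.04, adjusted p = 1.05e-10 by edgeR), while KRT17 fell by 1.10 on the log2 scale. In Hth83, where it was most abundant, it fell from 1348, 1247 and 1350.2 CPM to 1015, 1075 and 998 CPM (-0.35 ± 0.04). In Cal27 it fell from 32.3, 29.6 and 34.5 CPM to 19.5, 18.1 and 17.99 CPM (-0.79 ± 0.08). The groups did not overlap in any of the 3 lines, and the effects differed between Cal27 and Fadu by -1.09 ± 0.08 and between Fadu and Hth83 by 0.65 ± 0.06. Per kb, the ratio of KRT6A to KRT17 went from 0.0279 ± 0.0013 to 0.0729 ± 0.0066 in Fadu, from 0.293 ± 0.047 to 0.521 ± 0.028 in Cal27 and from 0.549 ± 0.0076 to 0.929 ± 0.073 in Hth83. It was higher in each treated library than in each untreated one of its line.

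KRT8, the type II keratin of simple epithelium, changed little in Fadu and Hth83. In Fadu it was at 2671, 2613 and 2561 CPM untreated and at 2469.7, 2384 and 2457 CPM treated (-0.11 ± 0.03, adjusted p = 9.15e-05 by edgeR), a call that was lost when libraries were scaled by total count alone (-0.0078, adjusted p = 0.801). Hth83 had 519.9, 488 and 521 CPM untreated and 532, 531 and 546 CPM treated, and did not pass (0.082 ± 0.042, adjusted p = 0.11 by edgeR). It did pass with scaling by total count (0.13, adjusted p = 0.00757 by edgeR) and by limma on log2(TPM + 1) (0.14, adjusted p = 0.0099). In these settings the median log2 fold change of all genes in Hth83 was 0.048 and 0.054. In Cal27, where KRT8 led, it fell from 1148, 1133 and 1094 CPM to 764, 728 and 742 CPM (-0.59 ± 0.03). In A375 it fell from 20.2, 16.6 and 19.6 CPM to 11.6, 11.999 and 11.8 CPM (-0.65 ± 0.09). The falls in Cal27 and A375 did not differ beyond error (difference 0.083 ± 0.066, adjusted p = 0.378 by edgeR). The pseudogene KRT8P12, listed at 12.6 CPM beside KRT8 at 18.8 CPM in untreated A375, did not pass there (0.19 ± 0.09, adjusted p = 0.0859 by edgeR).

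KRT18, the type I partner of KRT8, rose in Fadu and A375 and fell in Cal27. Fadu went from 983, 974 and 971 CPM to 1235, 1191 and 1233 CPM (0.31 ± 0.03, adjusted p = 7.6e-18 by edgeR) and A375 from 93.3, 91.2 and 87.0 CPM to 114, 121 and 115 CPM (0.39 ± 0.04). These rises did not differ beyond error (difference 0.042 ± 0.056). Cal27 fell from 571, 572 and 529 CPM to 342, 355 and 360.4 CPM (-0.66 ± 0.04). Its effect differed by -1.02 ± 0.06 from that in A375 and by -0.98 ± 0.05 from that in Fadu. Hth83 was at the edge of the threshold, with 305, 273 and 283 CPM untreated and 271, 255 and 268 CPM treated (-0.11 ± 0.05, adjusted p = 0.0499 by edgeR), and the call was lost when untreated library 1 or 3, or treated library 1 or 2, was left out. It was also lost with scaling by total count (adjusted p = 0.266 by edgeR), without the low-count filter (0.114), without robust dispersion (0.0563) and by limma on log2(TPM + 1) (0.422).

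KRT19 was tested in Fadu and Hth83. In Fadu it fell in every library, from 1009, 978 and 981 CPM to 510.1, 464 and 474 CPM (-1.05 ± 0.03, adjusted p = 5.44e-46 by edgeR). In Hth83 it had only 12, 13 and 18 reads in the untreated and 4, 3 and 4 reads in the treated libraries, a fall (-1.95 ± 0.60, adjusted p = 0.00735 by edgeR) that did not pass without untreated replicate 3 (adjusted p = 0.0662). The effects in the 2 lines were not shown to differ (0.90 ± 0.43, adjusted p = 0.103 by edgeR).

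The partner ratios of the simple and basal pairs moved in opposite directions in different lines. Per kb, KRT8 over KRT18 went from 0.168 ± 0.018 to 0.082 ± 0.0014 in A375, from 2.17 ± 0.03 to 1.62 ± 0.0035 in Fadu and from 1.44 ± 0.06 to 1.64 ± 0.05 in Hth83, without overlap. In Cal27 both partners fell together and the ratio, 1.63 ± 0.03 and 1.71 ± 0.08, overlapped. KRT5 over KRT14 went from 6.01 ± 0.04 to 3.20 ± 0.20 in Fadu, from 8.50 ± 0.40 to 31.7 ± 7.34 in Hth83, both without overlap, and overlapped in Cal27 (34.8 ± 6.47 and 32.2 ± 2.68). Ratios were not tested, and their direction within a line does not depend on the transcript length.

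**Figure D3:**
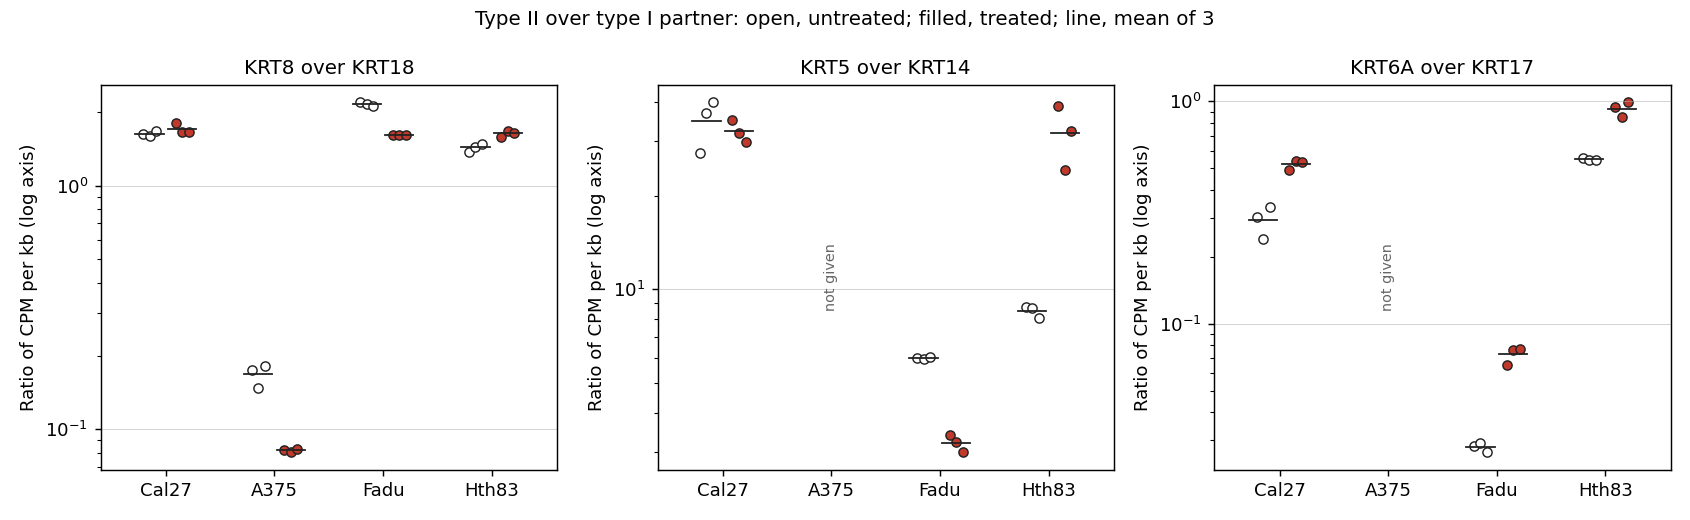
Ratio of the type II to the type I partner in each library, from CPM per kb, on log axes. Open points are untreated and filled points treated libraries, lines are means of 3, and ratios with a partner near 0 (KRT5 over KRT14 and KRT6A over KRT17 in A375) are not given. KRT8 over KRT18 is 0.082 in treated A375, and KRT5 over KRT14 moved in opposite directions in Fadu and Hth83.

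The make-up of the keratin pool shifted with these changes. KRT8 and KRT18 went from 30.0% ± 0.26 to 50.3% ± 1.37 of the 10 keratins in Fadu, from 22.4% ± 0.44 to 32.4% ± 2.06 in Hth83 and from 85.2% ± 0.26 to 90.4% ± 0.21 in Cal27, and from 97.0% ± 0.18 to 94.2% ± 0.54 in A375. KRT5, KRT14 and KRT15 went from 25.5% to 15.2% in Fadu and from 9.72% to 6.39% in Cal27, but from 4.72% to 6.67% in Hth83 and from 2.89% to 5.50% in A375. The size of these shares depends on the transcript length used, most for KRT8 (1755 bases, against 6881 for all annotated exons). The SD does not include that uncertainty. Type II keratins took 61.6% ± 1.08 of all keratin mRNA per kb in untreated and 72.2% ± 1.32 in treated Hth83. In A375 they went from 19.8% ± 1.09 to 15.3% ± 0.67, and they were at 43.2% and 44.0% in Fadu and at 64.9% and 65.8% in Cal27, where the groups overlapped. In treated Fadu KRT8 was the highest keratin per kb (1388 ± 26.5) and KRT17 the second (1101 ± 71.5), and KRT17 was first when the length of all exons was used.

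**Figure D4:**
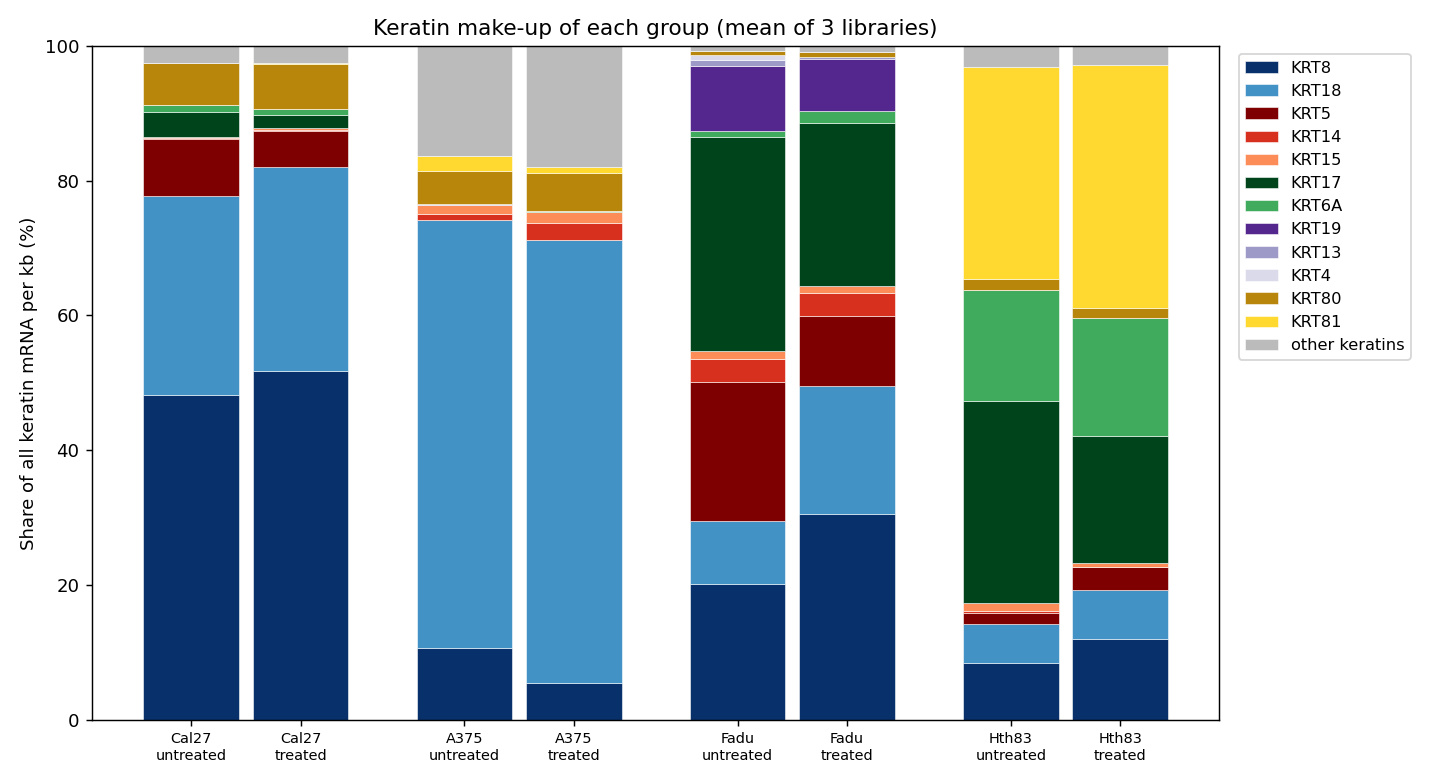
Share of each keratin in all keratin mRNA per kb (y axis, percent, mean of 3 libraries) in the 8 groups (x axis). Blue segments are KRT8 and KRT18, red and orange the basal keratins, green KRT17 and KRT6A, and yellow KRT81. KRT8 and KRT18 fill more of the bar after plasma in Cal27, Fadu and Hth83 and less in A375. KRT81 is the largest segment in treated Hth83, and in untreated Hth83 it is level with KRT17 within their spread.

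Whether the effect of plasma differed between lines was tested for all genes in the joint fit. The F test of interaction called 9 of the 10 keratins, beside 56.9% of 23642 genes tested. KRT4 was not called (adjusted p = 0.608 by edgeR) and had at most 9 reads in any library outside Fadu. KRT13 and KRT19 were called (adjusted p = 0.00906 and 0.0385 by edgeR) with at most 10 and 18 reads in any library outside Fadu. Their calls therefore say little about how the other lines respond. Of the keratins that passed the filter in both lines of a pair, 2 of 4 differed between Cal27 and A375 (background 35.5%), 6 of 7 between Cal27 and Fadu (38.4%), 6 of 7 between Cal27 and Hth83 (35%), 3 of 4 between A375 and Fadu (36%), 4 of 4 between A375 and Hth83 (27.3%) and 6 of 8 between Fadu and Hth83 (35.7%). These backgrounds are over all 23642 genes of the joint fit, including genes with too few reads for the filter in 1 of the lines, so they are not on the same basis as the keratin counts.

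Other keratins mostly fell in Cal27, Fadu and Hth83 where they passed, and mostly rose in A375. Of 45 further keratin genes, 10 were tested in Cal27, of which 7 fell and 0 rose, and 14 in Hth83, of which 6 fell and 0 rose. The other 8 in Hth83 did not pass. In Fadu 6 fell and 3 rose of 15, and in A375 5 rose and 1 fell of 10. Of all genes tested, 23.2% fell and 21.9% rose in Cal27, and 24.2% and 25.9% in Hth83. The same shares were 27% and 26.3% in Fadu and 24.8% and 25.7% in A375. KRT80, a type II keratin, fell in Cal27 (-0.61 ± 0.04) and Fadu (-0.59 ± 0.04) and rose in A375 (0.54 ± 0.07). KRT16, which pairs with KRT6A, fell in Fadu from 27.6 ± 1.5 to 11.8 ± 0.50 CPM (-1.24 ± 0.08), Cal27 (-0.68 ± 0.21) and Hth83 (-1.50 ± 0.22). KRT6B changed in the same direction as KRT6A, falling in Cal27 (-0.64 ± 0.10) and Hth83 (-0.65 ± 0.06) and rising in Fadu (0.95 ± 0.25), and it also rose in A375 (1.36 ± 0.15). In Fadu it was low, at 1.23 ± 0.28 CPM untreated and 2.39 ± 0.24 CPM treated. Its coding sequence is 97.5% identical to that of KRT6A, so the counts of these genes may not be independent. KRT81 fell in Hth83 from 2096 ± 241.2 to 1770.1 ± 75.7 CPM (-0.24 ± 0.06), and KRT23 fell there by 0.84 on the log2 scale. KRT10 fell in Cal27 (-0.55 ± 0.07) and rose in A375 (0.34 ± 0.07), and KRT7, of simple epithelium, fell in Cal27 (-0.68 ± 0.16) and Hth83 (-0.39 ± 0.16) and rose in Fadu (0.25 ± 0.09). KRT86, a hair keratin, was at 29.2 CPM in untreated and 26.5 CPM in treated Hth83 and did not pass (-0.14 ± 0.08).

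Genes that anchor keratin filaments fell mostly in Fadu and Hth83. Of 16 desmosome, hemidesmosome and plakin genes, 11 fell and 3 rose in Fadu (median log2 fold change -0.36) and 11 fell and 2 rose in Hth83 (-0.24), where 27% and 24.2% of all genes tested fell and 26.3% and 25.9% rose. In Cal27 7 rose and 6 fell (0.08), and in A375 3 rose and 6 fell of 13 (-0.12), where 21.9% and 25.7% of all genes rose and 23.2% and 24.8% fell. In Fadu PKP1, a desmosomal plaque protein, went from 138 ± 2.95 to 51.6 ± 4.5 CPM (-1.43 ± 0.05), and PPL, a plakin, fell by 0.82 on the log2 scale, whereas the hemidesmosomal ITGA6 (0.57 ± 0.04) and COL17A1 (0.32 ± 0.03) rose. ITGB4, the integrin chain that binds keratin through plectin, fell in Hth83 (-0.90 ± 0.04) and Cal27 (-0.55 ± 0.03). PPL also fell in Hth83 (-1.48 ± 0.13), where the desmosomal DSP (0.14 ± 0.04) and the plakin EVPL (0.72 ± 0.27) rose. In Cal27 COL17A1 fell (-0.49 ± 0.03), and the plakin DST (0.37 ± 0.04) and the desmosomal cadherin DSG2 (0.23 ± 0.04) rose. In A375 PLEC, plectin, rose (0.41 ± 0.04), as did ITGA6 (0.21 ± 0.03), and DST (-0.34 ± 0.04) and DSP (-0.35 ± 0.06) fell.

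Of 20 transcription factors of epithelial identity or its loss, 14 fell and 3 rose in Fadu (median -0.60), where 27% of all genes fell and 26.3% rose. In Cal27 8 fell and 1 rose of 19 tested, in Hth83 9 fell and 5 rose of 18, and in A375 5 fell and 4 rose of 12, beside 23.2%, 24.2% and 24.8% of all genes that fell and 21.9%, 25.9% and 25.7% that rose. TP63 fell in Fadu from 423 to 263 CPM (-0.69 ± 0.03) and in Cal27 from 363 to 239 CPM (-0.60 ± 0.04). PAX9, a factor of oral epithelium, fell in Fadu from 169.6 to 62.2 CPM (-1.46 ± 0.04). In Hth83 KLF4, a factor of suprabasal differentiation, fell from 48.0 to 9.47 CPM (-2.33 ± 0.08) and KLF5, a basal epithelial factor, from 471 to 221 CPM (-1.08 ± 0.05), while SOX2 (1.85 ± 0.19) and TFAP2C (0.36 ± 0.05) rose. OVOL1 (0.57 ± 0.16) and OVOL2 (0.40 ± 0.13), repressors of mesenchymal genes, rose in Fadu. In Cal27 ZEB1, a repressor of epithelial genes, rose (0.82 ± 0.17) and SNAI2, another such repressor, fell (-0.71 ± 0.06). In A375 TFAP2C (0.44 ± 0.04) and SOX2 (0.50 ± 0.10) rose, and ZEB1 (-0.43 ± 0.05) and TFAP2A (-0.61 ± 0.10) fell. The 8 squamous markers, of which TP63, TRIM29, PKP1 and DSG3 also stand in the lists above, summed to 2628 to 2684 CPM in untreated and 2292 to 2364 CPM in treated Fadu libraries, 1772 to 1808 and 1254 to 1270.3 CPM in Cal27, and 2159 to 2213 and 2141 to 2216 CPM in Hth83. The part of these genes in the keratin changes was not tested.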

How the data were processed

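RNA of 24 libraries (4 lines, 3 untreated and 3 treated each) was sequenced. The submitters' processing notes name HISAT2 and GRCh38 (build 38), and no source used here gives the counter, annotation release or strand setting. The authors deposited raw read counts and TPM per gene. The deposited TPM match a gene length that includes introns, so levels of different genes were instead compared as CPM per kb of the shortest principal transcript (GENCODE 29), which replaces the TPM ratios planned at first. CPM were scaled by TMM over all libraries.

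Counts were tested in R 4.3.3 with edgeR 4.0.16 (quasi-likelihood, robust, TMM, minimum count 10 and total 15), per line for plasma, over the 12 untreated libraries for baseline and over all 24 for differences between lines, with Benjamini-Hochberg adjustment over all genes and a threshold of 0.05. Baseline and joint fits share 1 spread. Sums and ratios were not tested, since 3 libraries against 3 cannot pass an exact permutation test. Alternatives were DESeq2 1.42.0, limma 3.58.1 on log2(TPM + 1) or log2(TPM + 0.1), other scalings and filters, a replicate block, and each library left out. Scripts were tested on simulated data.

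All 10 keratins are named. The rule for naming others took keratins with a mean of 10 CPM in any group and, from each list and line, the 2 genes with the smallest adjusted p among those that rose and those that fell, and let genes that add nothing go unnamed. The members and lists were chosen with earlier results of these data known. Total counts of 27.9 M to 49.5 M reads per library leave genes with few reads imprecise.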

Additional observations from a re-analysis of the deposited data

Results flagged for a closer look

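The effect of plasma differed between lines, with opposite directions, for 5 of the keratins (edgeR joint fit of 24 libraries, differences of log2 fold changes, adjusted over all genes). Of all 23642 genes in this fit, 27.3% to 38.4% differed per pair of lines. The share of all genes with opposite directions was not counted, so the count of 5 says little about keratins in particular. KRT14, the basal type I keratin, rose in A375 and fell in the other lines. The difference was -3.21 for Cal27 minus A375 (adjusted p = 1.46e-12), 2.70 for A375 minus Fadu (1.11e-13) and 3.20 for A375 minus Hth83 (1.07e-13). KRT15, its relative, differed by 1.24 for A375 minus Fadu (0.000192) and 2.02 for A375 minus Hth83 (1.02e-06), although its rise within A375 did not pass in this joint fit (adjusted p = 0.0537) or by limma on log2(TPM + 1) (0.0855). KRT5, their type II partner, rose only in Hth83 among the lines tested, with a difference of -1.94 for Cal27 minus Hth83 (1.17e-11) and -2.25 for Fadu minus Hth83 (5.41e-13).

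KRT6A, of activated keratinocytes, rose in Fadu alone among the 3 lines tested. It differed by -1.09 for Cal27 minus Fadu (5.24e-17) and 0.65 for Fadu minus Hth83 (2.54e-12). KRT18, of simple epithelium, rose in A375 and Fadu and fell in Cal27 and, at the edge of the threshold, in Hth83. It differed by -1.02 for Cal27 minus A375 (3.32e-20), -0.98 for Cal27 minus Fadu (8.62e-21), 0.48 for A375 minus Hth83 (1.29e-09) and 0.44 for Fadu minus Hth83 (2.17e-09).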

How the results depend on the processing

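KRT15 in Cal27, never past the threshold, turned from -0.14 to 0.069 with limma on log2(TPM + 1), with or without a filter, to 0.076 with log2(TPM + 0.1) and to 0.015 without Cal27 treated replicate 1, and ranged from -0.26 to 0.015 with 1 library left out. Genes called in A375 fell from 9900 to 6057 with limma on log2(TPM + 1) and no filter, and the cause was not tested. Leaving out 1 library gave 6956 to 7820 genes called in Cal27, 8739 to 9676 in A375, 9431 to 9737 in Fadu and 7792 to 8506 in Hth83. Keratins called stayed at 6, 4 and 10 in Cal27, A375 and Fadu, ranged from 5 to 7 in Hth83 (5 without untreated replicate 3), and from 7 to 10 in the interaction (7 without A375 treated replicate 2). Of the keratin fold changes, 466 were unchanged in direction and call, 16 lost and 4 gained the call and 4 reversed, and the 13 differences between lines with opposite directions kept direction and call (364 values). The other differences between lines were not rerun singly. The length of all exons, chosen after seeing the data, moved 31 of 40 levels per kb. The median of all genes moved by 0.20 (log2) with TPM in Cal27 and by 0.10 with total-count scaling in Fadu. With the replicate block, genes called were 7704, 9946, 10183 and 8652 in Cal27, A375, Fadu and Hth83, beside 7832, 9900, 10200 and 8657 without it, and no keratin's call changed. Same-numbered libraries correlated by -0.033 to 0.056, so no pairing by number was seen, although this check cannot exclude it. Depth limits KRT19 in Hth83 and KRT14 and KRT15 in A375 and Cal27, which rest on few reads.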

Other observations

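Other intermediate filament genes changed differently by line. LMNB1, a nuclear lamin, rose in Cal27 (log2 fold change 0.50), A375 (0.33) and Hth83 (1.05) and fell in Fadu (-0.66). LMNA, the A-type lamin, rose in A375 (0.69) and fell in Cal27 (-0.22) and Fadu (-0.099). NES, nestin, rose in A375 (0.46) and Fadu (1.29). VIM, the filament protein of mesenchymal cells, fell in Hth83 (-0.43). Of the genes that bind keratin or take part in its turnover, 7 of 11 fell and 1 rose in Fadu, and 6 rose and 2 fell in Hth83, beside 27% of all genes that fell in Fadu and 25.9% that rose in Hth83. In Cal27 (of 11) and A375 (of 10) 3 rose and 3 fell. KLHL24, an adaptor for keratin degradation, fell in Fadu (-1.23), Hth83 (-0.53) and A375 (-0.39) and rose in Cal27 (0.39).

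The pseudogene KRT8P12, which is similar to KRT8, fell in Cal27 (-0.43) and rose in Fadu (0.33) and Hth83 (0.32). KRT16P6, chosen after its values were seen, rose in Fadu from 14.05 to 35.6 CPM (1.33), while KRT16 fell there.

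Over the 24 libraries, which share 4 lines so that a correlation mostly describes lines, the genes outside the keratins most like each (Pearson r of log2(CPM + 1)) were CA2 for KRT5 (0.990), LLGL2 for KRT8 (0.997), CASC19 and PDGFA for KRT6A (both 0.993), SSH3 for KRT17 (0.983), FAM177A1 for KRT18 (0.988), SYT8 for KRT14 (0.974), TMED10 for KRT15 (0.985), ALDH3A1 for KRT13 (0.993), CYP24A1 for KRT19 (0.995) and COQ7 for KRT4 (0.978).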
